A study of Mus musculus with 4 samples.

Results

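S100a4, S100a6, S100a10, S100a11, S100a13, Lgals1, Lgals3 and Anxa2 are 8 of the 32285 genes counted in T cells from mouse tumors. They were chosen because their RNA had already been seen to differ in these data between CD4, CD8 and Foxp3 cells, between cells with at least 20 or under 20 Ccl5 unique molecular identifiers (UMIs, one per captured RNA molecule), and between the 2 tumor groups, so values for those contrasts are given as a description. Where members that met a fitted model's threshold are counted there, the count stands beside the share of all genes that met it and supports nothing. Ccl5 encodes a chemokine made by effector and memory T cells. Both groups of tumors grew under the skin of male wild-type C57BL/6J mice, aged 6 weeks, from 105K cells, a Tsc2-deficient kidney tumor line with overactive mTORC1. The tumor cells carried either sh-NC, a non-targeting shRNA, or sh-B7-H3 (1), an shRNA against the immune checkpoint B7-H3. The hosts' T cells carried no shRNA. From each group, 80 tumors were pooled, live CD3+ T cells were sorted and stained with DNA-barcoded antibodies, and the cells were run on a droplet system, giving sh-NC replicates 1 and 2 and sh-B7-H3 (1) replicates 1 and 2. The sources differ on whether the 2 libraries of a group were repeat lanes of 1 pool or separate pools of tumors. The p-values therefore measure only the spread between these libraries, which may be technical, and if each group was 1 pool, a difference between the 2 sets of mice cannot be told apart from the effect of the shRNA.

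S100 proteins are small calcium-binding proteins that act inside cells as dimers. S100a4 binds non-muscle myosin and takes part in cell movement, S100a6 binds the ubiquitin ligase partner Cacybp, S100a11 acts in membrane repair, and S100a13 takes part in the release of proteins that lack a signal sequence. S100a10 differs from the rest in that it no longer binds calcium and pairs with annexin A2 (Anxa2), a phospholipid-binding protein, into a tetramer at the plasma membrane. Galectins bind galactose-containing sugars on glycoproteins. Galectin-1 (Lgals1) can promote T cell death and is abundant in regulatory T cells, and galectin-3 (Lgals3) crosslinks glycoproteins at the cell surface and is abundant in macrophages. In T cells, S100a4, S100a6 and Anxa2 are widely used as RNA markers of effector and memory states.

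The libraries held 7030 to 12112 barcodes called as cells and 79224898 to 132820909 RNA UMIs, and after filters on gene number, mitochondrial RNA and doublets 2964 to 6512 cells per library remained, with median depths of 7827 and 8319 UMIs in sh-NC and 6315 and 6485 in sh-B7-H3 (1). Of the called barcodes, 9577 of 12112 and 8338 of 10589 in sh-NC passed the filters on mitochondrial RNA and minimum gene number, against 4386 of 7030 and 5795 of 9129 in sh-B7-H3 (1), so depth and the loss at these filters moved with the tumor group. Between 17 and 35 cell barcodes were shared by any pair of libraries. Cd276, the gene of B7-H3, had 9 to 11 UMIs per library in these sorted T cells and could not check the tumor cells' knockdown. Cells were assigned to lineages by RNA. There were 1514, 1254, 625 and 789 CD4 cells, 2784, 2397, 1148 and 1510 CD8 cells and 326, 302, 164 and 172 Foxp3 cells in sh-NC replicates 1 and 2 and sh-B7-H3 (1) replicates 1 and 2, the order used for all sets of 4 values here. All 6 T cell markers (Cd3d, Cd3e, Cd3g, Trac, Trbc1, Trbc2) were detected in each lineage of each library. A list of 16 myeloid genes summed to 162 to 604 CPM (UMIs per 1000000 UMIs of the cells summed) in CD4 and CD8 cells and to 621 to 1584 in Foxp3 cells. B cell genes summed to 140 to 377 CPM. The 4 NK genes summed to 5.92, 5.51, 34.8 and 34.4 CPM in CD4 cells, 6.56, 7.85, 49.6 and 39.0 in CD8 cells and 0.91 to 4.97 in Foxp3 cells. In CD4 and CD8 cells with at least 20 Ccl5 UMIs they summed to 49.9 to 89.5. Of these genes Klre1 was detected and Ncr1 was at 0 throughout. Genes of tumor or stroma summed to 28.1 to 86.5 CPM, with 3 to 7 of 10 detected and Dcn at 0 throughout.

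The 5 S100 genes lie on mouse chromosome 3, and all 8 genes are on the plus strand (mm10, GENCODE vM21). S100a13 (3:90514435-90524581), S100a4 (3:90603771-90606045) and S100a6 (3:90612882-90624181) lie in the same region, with 79190 bases between S100a13 and S100a4 and 6837 between S100a4 and S100a6, stretches that may hold other genes. S100a11 (3:93520488-93526287) and S100a10 (3:93555080-93564643) lie 28793 bases apart further along. Anxa2 is at 9:69453620-69491795, Lgals3 at 14:47367751-47386160 and Lgals1 at 15:78926725-78930465. S100a4 overlaps the model Gm42674 on its own strand, and S100a11 and Lgals1 have pseudogene copies, so some of their reads may have been left uncounted.

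RefSeq (GRCm38.p6) gave the 250 bases before its own start site for 6 of the 8, not for S100a10 and Lgals1. The windows of S100a4 and S100a6, the pair of members with the highest correlation over cells, and of S100a11, with a smaller contrast between Ccl5-high and Ccl5-low CD8 cells, are shown from 5′ to 3′ on the plus strand. Capitals mark matches to short motifs searched on both strands, which do not overlap here. Those were AP-1 (TGANTCA), RUNX (TGTGGT), ETS (GGAAGT), T-box (AGGTGTGA) and the TATA box (TATAAA).

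S100a4, chr3:90603520-90603769: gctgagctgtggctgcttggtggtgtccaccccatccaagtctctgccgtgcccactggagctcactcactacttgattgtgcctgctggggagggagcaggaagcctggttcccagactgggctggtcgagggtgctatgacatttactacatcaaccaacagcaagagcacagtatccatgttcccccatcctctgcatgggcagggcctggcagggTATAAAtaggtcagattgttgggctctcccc

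S100a6, chr3:90612644-90612893: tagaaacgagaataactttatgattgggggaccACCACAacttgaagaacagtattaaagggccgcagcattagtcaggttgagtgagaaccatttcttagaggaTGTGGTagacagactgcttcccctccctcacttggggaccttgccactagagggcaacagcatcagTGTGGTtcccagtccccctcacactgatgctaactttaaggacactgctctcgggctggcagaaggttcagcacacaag

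S100a11, chr3:93520246-93520495: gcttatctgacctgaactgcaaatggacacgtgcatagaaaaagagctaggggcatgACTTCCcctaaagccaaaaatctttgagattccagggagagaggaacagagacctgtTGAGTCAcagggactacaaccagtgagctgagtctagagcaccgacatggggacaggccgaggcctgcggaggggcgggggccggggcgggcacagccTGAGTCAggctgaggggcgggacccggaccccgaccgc

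The S100a4 window held a TATA box 31 to 26 bases before the start, as did 12.4% of 32851 windows of the same length. In the S100a6 window there were 3 RUNX matches, against a share of 14% of windows with at least 1. S100a11 had 2 AP-1 matches and 1 ETS match, and Anxa2 had 1 AP-1 match and 1 TATA box. AP-1 was in 6.75% of all windows and ETS in 19.7%. The T-box motif, found in 1.12% of windows, was in none of the 6, and the windows of S100a13 and Lgals3 had none of the 5 motifs. A match is only a run of letters and not a shown binding site.

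The effector-state markers S100a4 and S100a6 were several times higher in CD4 cells of sh-B7-H3 (1) tumors. S100a4 stood at 175 and 181 CPM in the sh-NC libraries and at 806 and 874 in the sh-B7-H3 (1) libraries, a ratio of means of 4.71. The fitted log2 fold change, from edgeR on UMI sums per library, was 2.15 ± 0.05 (SE). S100a6 stood at 182 and 161 against 831 and 831 CPM, a log2 fold change of 2.18 ± 0.05. Both genes had well separated groups, and the libraries of a group lay close together. S100a11 had 213 and 231 against 768 and 706 CPM, and a log2 fold change of 1.64 ± 0.05. Anxa2, at lower counts, had 22.9 and 24.0 against 90.6 and 86.2 CPM, and a log2 fold change of 1.82 ± 0.08. Lgals3 had 22.9 and 21.7 against 60.2 and 55.7 CPM, and a log2 fold change of 1.28 ± 0.09. These 5 met the rule for a call, at least a doubling or halving (log2 of 1 or more) with an adjusted p under 0.05. Of 10856 genes 10.2% met it in either direction and 7.81% as higher in sh-B7-H3 (1). The contrast was part of how the members were chosen, so nothing is read from that count.

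The other members had smaller differences in CD4 cells. Lgals1 had 220 and 201 against 404 and 424 CPM (log2 fold change 0.89 ± 0.05) and S100a13, the secretion helper, 147 and 154 against 242 and 257 (0.64 ± 0.05). S100a10 had 414 and 401 against 601 and 594 CPM, the lowest difference of the set at 0.46 ± 0.04, although its partner Anxa2 was among the highest. All 8 members had both sh-B7-H3 (1) libraries above both sh-NC libraries in CD4 cells, a pattern shared by 43.2% of genes of at least 10 CPM. The median over the members was 1.46 and that over all genes tested 0.00.

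**Figure D1:**
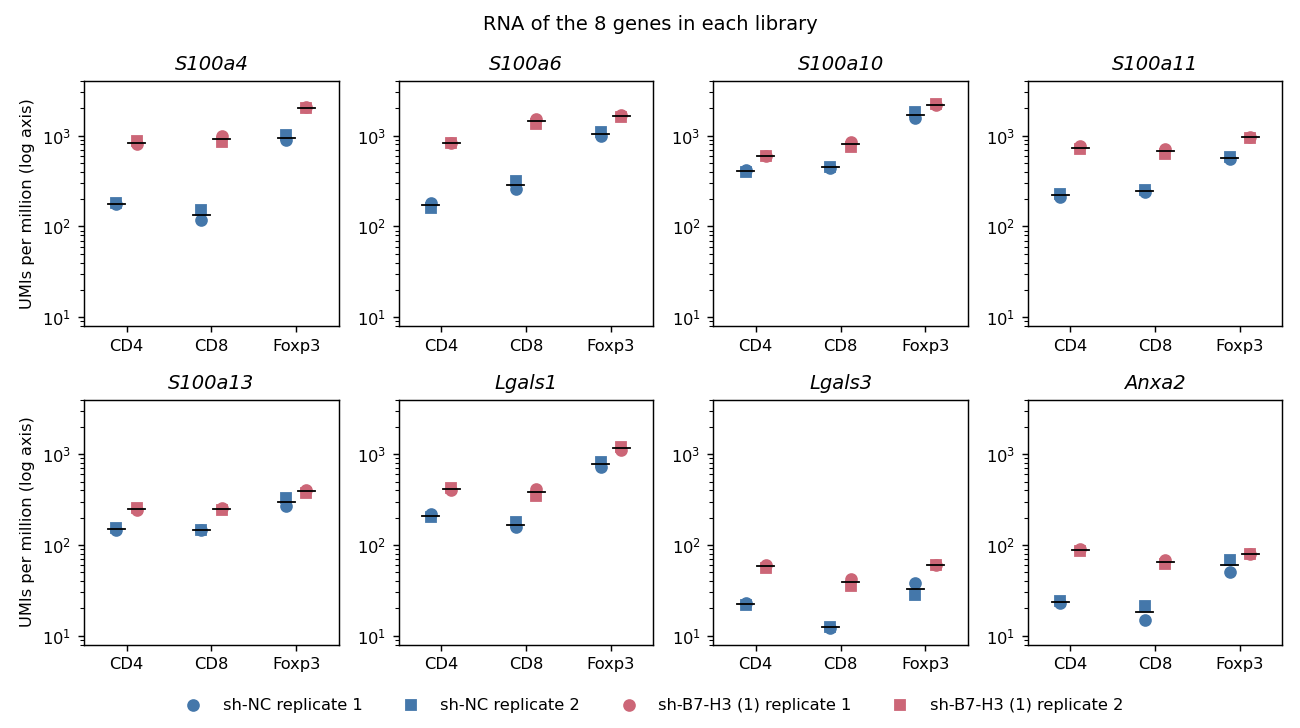
RNA of each of the 8 genes in CD4, CD8 and Foxp3 cells, in CPM on a log axis. Points are single libraries and short bars the mean of the 2 libraries of a group. In every panel and lineage both sh-B7-H3 (1) points lie above both sh-NC points, with the widest gaps for S100a4 and S100a6 in CD4 and CD8 cells and the narrowest for S100a10 and S100a13.

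In CD8 cells, S100a4 showed the largest difference of any member in any lineage taken whole. It had 117 and 151 CPM in sh-NC against 982 and 844 in sh-B7-H3 (1), a ratio of means of 6.81 and a log2 fold change of 2.69 ± 0.07. S100a6 had 261 and 314 against 1545 and 1329 CPM (2.25 ± 0.06). Anxa2 followed with 14.9 and 21.2 against 67.9 and 62 (1.78 ± 0.10), and Lgals3 with 12.2 and 12.6 against 42.7 and 35.6 (1.57 ± 0.09). The libraries of the 2 groups did not overlap for any member, which was so for 45.3% of genes of at least 10 CPM in this direction. S100a11 had 237 and 253 against 715 and 624 CPM (1.37 ± 0.05), and Lgals1 157 and 177 against 414 and 349 (1.11 ± 0.06). S100a10 and S100a13 were again lowest, at 0.76 ± 0.04 and 0.68 ± 0.04. By the same rule 6 members were called, against 9.08% of 11623 genes in either direction and 7.21% as higher. The call of Lgals1 was lost without sh-B7-H3 (1) replicate 1 and with a stricter doublet limit, where its log2 fold change was as low as 0.80. With up to 10% mitochondrial UMIs allowed S100a4 had 2.14 in CD4 and 2.56 in CD8 cells, and with cells thinned to 1000 UMIs 1.95 and 2.41.

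Foxp3 cells, the regulatory T cells, already had high levels in the control tumors. S100a4 stood at 891 and 1014 CPM in sh-NC and 2077 and 2008 in sh-B7-H3 (1), a ratio of means of 2.14 and a log2 fold change of 1.10 ± 0.06. It was the only member called, against 1.08% of 8412 genes in either direction and 0.761% as higher, and the call was lost when cells with a UMI of any of 6 myeloid genes (Lyz2, C1qa, C1qb, C1qc, Apoe, Csf1r) were left out, at 0.89. S100a10 had 1573 and 1826 against 2169 and 2234 CPM, and Lgals1 722 and 824 against 1107 and 1203. Their log2 fold changes were 0.38 ± 0.06 and 0.58 ± 0.07. Those of S100a6, S100a11, S100a13, Lgals3 and Anxa2 lay between 0.39 and 0.88. With a stricter doublet limit Anxa2 turned to -0.19, and Lgals3 met the rule with cells thinned to 1000 UMIs (1.60) and without sh-NC replicate 1 (1.13). All 8 again had non-overlapping groups, with 23.4% of genes of at least 10 CPM as background.

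The S100a4 level of sh-NC Foxp3 cells was thus above that of CD4 and CD8 cells of the same tumors and close to that of the sh-B7-H3 (1) CD4 and CD8 cells. Among cells with under 20 Ccl5 UMIs, Foxp3 cells had 5.92 to 11.1 times the S100a4 level of CD4 cells over the 4 libraries, 4.05 to 5.12 times the S100a10 level and 3.68 to 4.91 times the Lgals1 level. The ratio of Lgals3 was lower, at 1.72 to 2.74. The 11 to 14 Foxp3 cells per library with at least 20 Ccl5 UMIs were too few to compare.

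Side by side, the knockdown difference of S100a4 was larger in CD8 than in CD4 cells, by 0.54 ± 0.08 (SE) on the log2 scale, and that of S100a10 by 0.29 ± 0.05. That of S100a11 was smaller in CD8 cells, at -0.28 ± 0.05. For the other 5 members the CD8 value minus the CD4 value lay between -0.04 and 0.29. Both contrasts entered the choice of members, so these are descriptions. No member met the rule for a call on this difference, which 0.946% of 11632 genes did. The S100a4 value was 0.09 with a stricter doublet limit and that of S100a11 was -0.15 with stricter lineage calls.

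The composition of the lineages differed between the groups. Cells with at least 20 Ccl5 UMIs were 8.25% ± 1.30 (SD, n = 2) of CD4 cells in sh-NC and 46.2% ± 1.47 in sh-B7-H3 (1). Among CD8 cells they were 16.4% ± 2.53 and 57.9% ± 2.48, and among Foxp3 cells 3.82% ± 0.24 and 8.34% ± 0.28. In each lineage both sh-B7-H3 (1) libraries lay above both sh-NC libraries (exact permutation test, two-sided, p = 0.333, the smallest that 2 against 2 allows).

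Every member was higher in cells with at least 20 Ccl5 UMIs than in the other cells of the same lineage and library, in 4 of 4 libraries for CD4 and for CD8 cells. In CD8 cells the contrast was widest for S100a4 and S100a6, whose order changed between libraries. S100a4 had 8.03, 4.68, 70.0 and 52.4 CPM in cells under 20 Ccl5 UMIs and 977, 1069, 1799 and 1703 in cells at or above this limit. S100a6 went from 20.1, 14.3, 94.8 and 84.6 to 2151, 2199, 2842 and 2681. These correspond to log2 fold changes of 5.65 ± 0.42 and 5.63 ± 0.37, with the library as a block. The contrast was much wider in sh-NC, with ratios of 122 and 228 against 25.7 and 32.5 for S100a4 and 107 and 154 against 30.0 and 31.7 for S100a6. The fitted values went from 4.34 and 4.21 at a Ccl5 limit of 40 to 6.40 and 6.25 at a limit of 10. Lgals3 had 3.67 ± 0.38 (4.36 without sh-B7-H3 (1) replicate 1) and Anxa2 3.86 ± 0.19, while S100a11 (1.99 ± 0.05), Lgals1 (1.82 ± 0.09), S100a10 (1.29 ± 0.04) and S100a13 (1.03 ± 0.05) were present in both kinds of cell. All 8 were called, against 18.8% of 10376 genes in either direction and 10.8% as higher, with S100a13 under the fold limit when doublets were kept (0.97). In the control libraries 93.9% and 97.3% of all S100a4 UMIs of CD8 cells came from the Ccl5-high cells, and 27.3% and 32.8% of the S100a10 UMIs.

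In CD4 cells the order was different. Anxa2 had the highest fitted contrast, from 7.98, 9.14, 18.5 and 32.9 to 240, 196, 169 and 152 CPM (3.37 ± 0.30), followed by S100a6 (3.05 ± 0.24), S100a4 (2.76 ± 0.22), S100a11 (2.46 ± 0.14), Lgals3 (2.28 ± 0.27) and Lgals1 (1.29 ± 0.12). These 6 were called, against 21.7% of 9621 genes in either direction and 11.6% as higher, while S100a13 (0.99 ± 0.08) and S100a10 (0.72 ± 0.09) were under the fold limit. The order of the members did not hold in each library. In sh-B7-H3 (1) replicate 2 the ratio of levels of Anxa2 was 4.62, below S100a6 (5.17), Lgals3 (5.01) and S100a11 (4.67), and that of S100a4 was 4.46. For sh-NC replicate 2 the ratio of Lgals3 was 14.1, above that of S100a4 at 13.9. Without sh-B7-H3 (1) replicate 2 the fitted value of Anxa2 was 3.96. S100a13 passed the limit in 6 of 16 alternatives, among them without sh-B7-H3 (1) replicate 1 (1.03) or 2 (1.09). CD4 cells under 20 Ccl5 UMIs held more S100a4 than CD8 cells under the limit, at 93.6, 89.4, 238 and 343 CPM, so that CD8 cells had 0.052 to 0.29 of the CD4 level. For Lgals3 this ratio was 0.17 to 0.49 and for S100a6 0.22 to 0.45. It was close to even for S100a10, at 0.87 to 0.97. CD4 cells were called without Foxp3 UMIs, so regulatory T cells with no captured Foxp3 RNA can be among them, at an unknown share. Above the limit CD8 cells held more S100a6 than CD4 cells in all 4 libraries, at 1.44 to 1.89 times, and less S100a11, at 0.59 to 0.87 times.

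**Figure D2:**
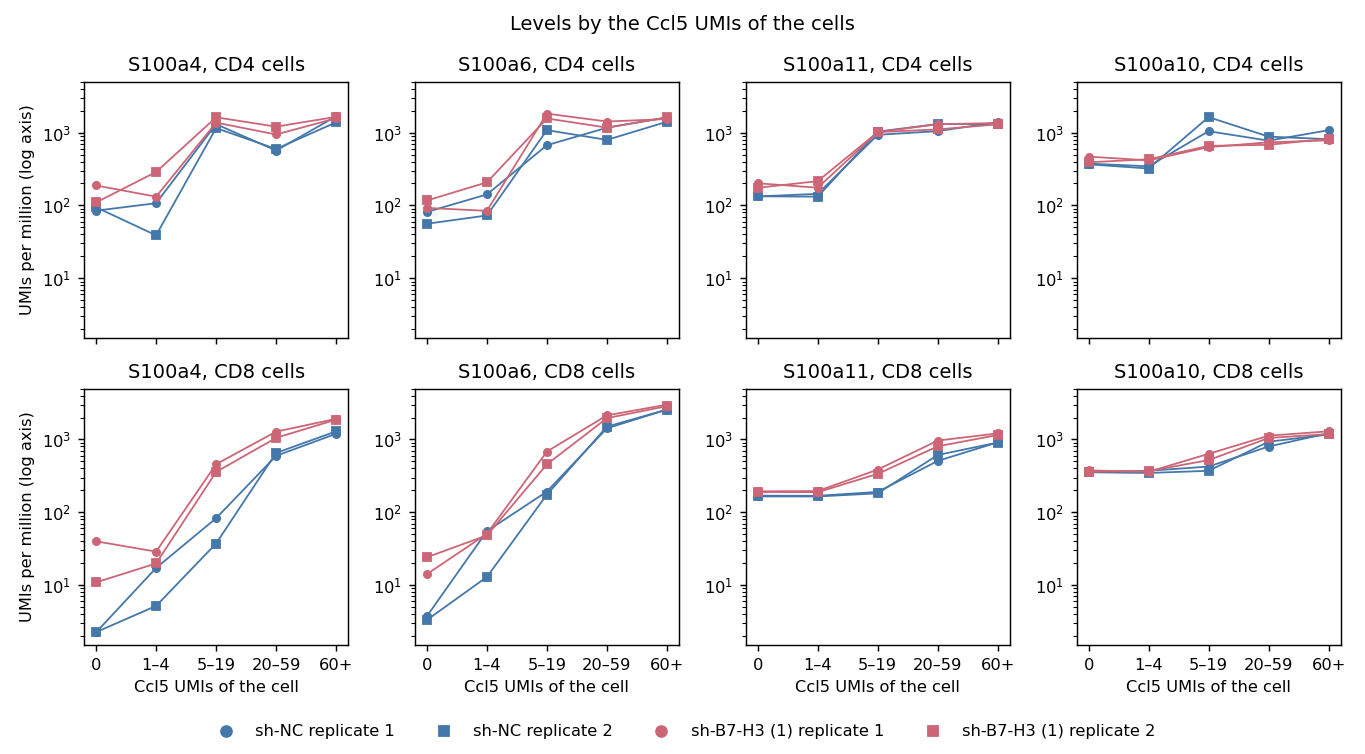
Levels of S100a4, S100a6, S100a11 and S100a10 in CPM (log axis) in cells grouped by their Ccl5 UMIs, for each library, with CD4 cells above and CD8 cells below. In CD8 cells S100a4 goes from 2.25 to 39.9 CPM without Ccl5 to 1196 to 1918 at 60 or more Ccl5 UMIs, whereas S100a10 goes from 354 to 376 up to 1170 to 1293.

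Levels by the number of Ccl5 UMIs showed how the members approached the limit of 20. In CD8 cells with no Ccl5 UMI, S100a4 stood at 2.25 and 2.26 CPM in sh-NC and at 39.9 and 10.9 in sh-B7-H3 (1). In cells with 5 to 19 Ccl5 UMIs, just below the limit, it was 82.8 and 37.2 against 457 and 358. Just above it, at 20 to 59, the values were 596 and 653 against 1280 and 1051, and at 60 or more they were 1196 and 1291 against 1918 and 1871. The 2 groups thus stood apart within each of these ranges. S100a11 remained at 165 to 169 CPM in sh-NC CD8 cells with 0 to 4 Ccl5 UMIs and reached 913 and 907 at 60 or more.

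CD4 cells behaved otherwise below the limit. With 5 to 19 Ccl5 UMIs, S100a4 was already at 1305 and 1152 CPM in sh-NC and at 1370 and 1622 in sh-B7-H3 (1), and S100a11 was at 932 and 1032 against 1013 and 1015. The sh-NC values there rest on only 9 and 8 cells. In these cells Lgals1 was at 2014 and 984 CPM, against 833 and 663 at 60 or more. S100a10 was at 1044 and 1632, against 1078 and 812. In sh-NC Foxp3 cells with 5 to 19 Ccl5 UMIs, Lgals1 and S100a10 averaged 1668 and 3497 CPM. Whether regulatory T cells without captured Foxp3 RNA are among these CD4 cells was not tested. With no Ccl5 UMI, S100a4 was 84.7 and 94.2 against 188 and 110 CPM, which is well above the level in CD8 cells. Just above the limit, at 20 to 59, S100a4 was lower than in the range before in all 4 libraries, and the groups stood apart at 567 and 596 against 941 and 1206 CPM, over 33 and 21 sh-NC cells. At 60 or more, the groups overlapped at 1672 and 1384 against 1570 and 1645.

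Within Ccl5-high CD4 cells the knockdown difference of the members was small. S100a4 had 1367 and 1239 CPM in sh-NC and 1426 and 1531 in sh-B7-H3 (1), a log2 fold change of 0.28 ± 0.07, and S100a6 had 0.21 ± 0.07. S100a11 overlapped between groups, at 1296 and 1312 against 1341 and 1249. The remaining 5 were lower in both sh-B7-H3 (1) libraries. Lgals3 had 123 and 150 against 86.2 and 99.8 CPM (-0.46 ± 0.14) and Anxa2 240 and 196 against 169 and 152 (-0.35 ± 0.11). None of the 8 was called by edgeR or by DESeq2, against 0.955% of 8167 genes (0.441% as higher). With edgeR, S100a4 and Lgals3 had an adjusted p under 0.05 and were under the fold limit. The share of all genes with such an adjusted p is not given here, so this is only a description. An unadjusted p under 0.05 was seen for 5 members with edgeR and 4 with DESeq2, as for 14% and 4.55% of all genes tested. This contrast chose the members, so nothing is read from these counts. Non-overlap with sh-B7-H3 (1) above was seen for 14.6% of genes of at least 10 CPM and below for 32.3%.

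Within Ccl5-high CD8 cells S100a4 kept a difference, with 977 and 1069 against 1799 and 1703 CPM (0.82 ± 0.04). S100a11 had 765 and 804 against 1165 and 1080 (0.56 ± 0.04), and S100a6 0.39 ± 0.04. S100a10 and S100a13 were between 0.21 and 0.26, and Lgals1 and Anxa2 overlapped between groups. Lgals3 was lower in sh-B7-H3 (1), at 86.3 and 77.1 against 65.0 and 68.3 CPM (-0.25 ± 0.09). None was called by edgeR or DESeq2, against 2.08% of 9601 genes (0.927% as higher). With edgeR, S100a4, S100a6, S100a11, S100a10 and S100a13 had an adjusted p under 0.05 and were under the fold limit. The share of all genes with such an adjusted p is not given here, so this is only a description. An unadjusted p under 0.05 was seen for 7 members with edgeR and 5 with DESeq2, as for 23.4% and 9.84% of all genes tested. Again nothing is read from these counts. Sh-B7-H3 (1) was above without overlap for 5 members and below for 1, against 21.1% and 34.2% of genes of at least 10 CPM.

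Among cells under 20 Ccl5 UMIs, at low levels, the fitted differences of S100a4, S100a6, Lgals3, Anxa2 and Lgals1 were larger than above the limit in both lineages, while in CD8 cells those of S100a11, S100a10 and S100a13 were smaller. In CD8 cells S100a4 had a log2 fold change of 3.28 ± 0.16, S100a6 2.43 ± 0.11, Lgals3 2.13 ± 0.33 and Anxa2 1.35 ± 0.21, and these 4 were called against 1.53% of 10769 genes (1.46% as higher). The Anxa2 call was lost without sh-B7-H3 (1) replicate 2, at 1.03, and with a stricter doublet limit, at 0.83, and Anxa2 had too few counts to be tested in thinned cells. That of Lgals3 was lost with DESeq2, at 2.26, and with no upper gene limit, at 1.23. The Lgals3 levels were 2.72 and 2.37 against 17.8 and 5.56 CPM, so the size rested on 1 library, and the log2 fold change was 1.19 without sh-B7-H3 (1) replicate 1 and 2.86 without replicate 2. The Lgals3 sums there were 60, 45, 68 and 32 UMIs. S100a11 had 0.38 ± 0.04, S100a10 0.18 ± 0.03 and S100a13 0.20 ± 0.05. In CD4 cells S100a4 had 1.73 ± 0.07, S100a6 1.74 ± 0.09, Anxa2 1.68 ± 0.19 and Lgals3 1.04 ± 0.18. All 8 had non-overlapping groups there and in the Ccl5-low CD8 cells, as did 19.5% and 13.7% of genes of at least 10 CPM in this direction. S100a4, S100a6, Anxa2 and Lgals3 were called in CD4 cells against 2.03% of 10188 genes (1.8% as higher), and S100a11 was just under the fold limit at 0.94 ± 0.06. It passed the limit in 4 of 18 alternatives, among them without sh-B7-H3 (1) replicate 1. The Lgals3 call was lost under 7 of 18 alternatives, at 0.81 without sh-NC replicate 2, at 0.61 without sh-B7-H3 (1) replicate 1 and at 0.33 without the cells that held a myeloid UMI.

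In sh-B7-H3 (1), a large part of the S100a4 RNA of Ccl5-low cells came from the few cells just under the limit. Cells with 5 to 19 Ccl5 UMIs were 0.641% and 0.702% of Ccl5-low CD4 cells in sh-NC and 7.58% and 9.47% in sh-B7-H3 (1), and 3.28% and 4.23% against 9.94% and 10.6% of Ccl5-low CD8 cells. They held 6.86% and 5.64% against 41.5% and 37.8% of the S100a4 UMIs of Ccl5-low CD4 cells, and 41.2% and 41.6% against 57.5% and 69.9% of those of Ccl5-low CD8 cells. With 0 to 4 Ccl5 UMIs, S100a4 stood at 87.6 and 84.7 against 150.0 and 232 CPM in CD4 cells and at 4.92 and 2.89 against 32.6 and 17.6 in CD8 cells. S100a6 then overlapped between the groups in CD4 cells, at 89.2 and 58.9 against 86.9 and 179 CPM, as did Lgals3. At a Ccl5 limit of 5, chosen after seeing the data, the log2 fold change of S100a4 was 1.25 in CD4 and 2.67 in CD8 cells. That of S100a6 was 0.96 and 2.20, that of Anxa2 0.96 and 0.95, and that of Lgals3 0.46 and 1.86. S100a6, Anxa2 and Lgals3 in CD4 cells and Anxa2 in CD8 cells were thus no longer called.

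**Figure D3:**
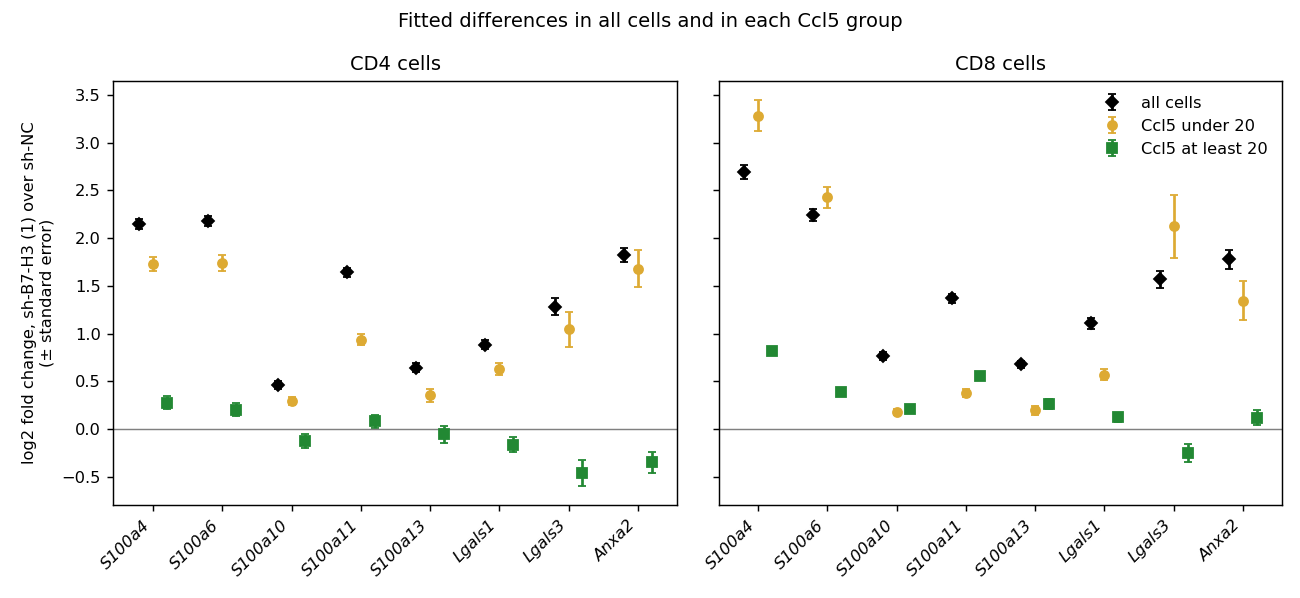
Fitted log2 fold change of sh-B7-H3 (1) over sh-NC, with its standard error, in all cells and in cells under or at least 20 Ccl5 UMIs. In CD4 cells the Ccl5-high values lie between -0.46 and 0.28, and in CD8 cells S100a4 stands at 0.82.

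To put the share of Ccl5-high cells beside the level within them, the level in every library was recomputed at the mean sh-NC share of UMIs from Ccl5-high cells. That share was 7.19% in CD4 cells and 12.5% in CD8 cells, against 46.2% and 50.4% in sh-B7-H3 (1). The log2 ratio of S100a4 then went from 2.24 to 1.07 in CD4 cells and from 2.77 to 1.03 in CD8 cells. For S100a6 it went from 2.27 to 0.98 and from 2.32 to 0.56, and for Lgals1 from 0.97 to 0.42 and from 1.19 to 0.35. Over the members 30.5% to 48.0% of the log2 ratio was left in CD4 cells and 15.0% to 37.2% in CD8 cells. These parts hold only for the control share, which gives most weight to Ccl5-low cells, and no other share was used. Among Ccl5-high cells, 5 members in CD4 cells and Lgals3 in CD8 cells were lower in sh-B7-H3 (1). The recomputed values are arithmetic on the same sums and not a test.

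**Figure D4:**
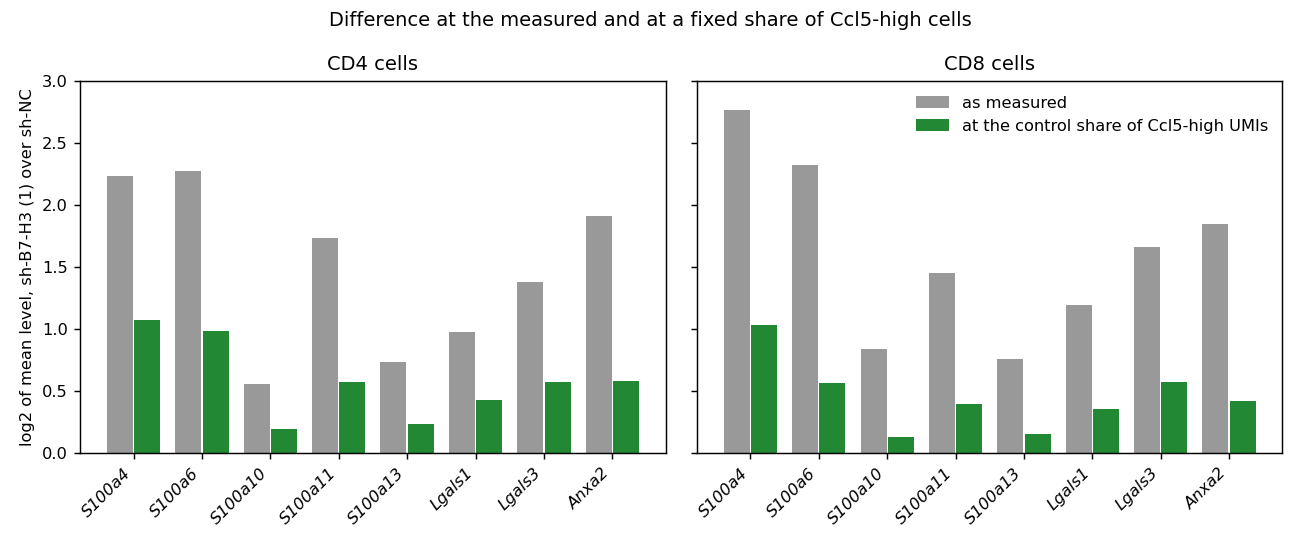
Log2 of the mean level in sh-B7-H3 (1) over that in sh-NC for each gene, as measured (grey) and with the Ccl5-high share of UMIs set to the control share (green), in CD4 and CD8 cells. Every green bar is shorter than its grey bar and above 0, and S100a4 has the tallest green bar in both lineages.

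Free RNA in the droplets also carried these transcripts. In barcodes with 1 to 50 UMIs that were not called as cells, S100a4 was on average 165 CPM in sh-NC and 572 in sh-B7-H3 (1), a ratio of 3.46. The ratio was 2.74 for S100a6, 2.87 for Lgals3, 2.23 for Anxa2, 2.00 for S100a11, 1.65 for Lgals1, 1.23 for S100a10 and 1.22 for S100a13, and it was 2.86 for Ccl5. Ccl5-low CD8 cells held S100a4 at 5.04%, 2.73%, 11.8% and 9.52% of the level of the empty barcodes of their own library, and Ccl5 itself, held under the limit, at 3.85% to 5.91%. In Ccl5-low CD4 cells S100a4 stood at 40.04% to 62.3% of the empty level. The part of free RNA in the differences of the Ccl5-low cells was not tested.

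Counted per cell at an equal depth of 1000 UMIs, S100a4 was detected in 6.82% and 7.42% of CD4 cells in sh-NC and in 28.1% and 30.5% in sh-B7-H3 (1). In CD8 cells it was 6.98% and 8.61% against 38.2% and 33.4%. Ccl5-low CD8 cells, set beside them after their values were seen, gave 0.464% and 0.511% against 4.34% and 3.62%. They are no background, since no cells known to lack S100a4 are used here, and the part of free RNA in these shares was not tested. Without thinning, S100a4 was in 11.3% and 12.5% of sh-NC CD4 cells and in 43.5% and 44.4% of sh-B7-H3 (1) CD4 cells, at median depths of 6654 to 8039 UMIs. The Ccl5-low CD8 cells then had 2.53%, 2.81%, 12.5% and 14.7%, at 8332 to 9297 UMIs.

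CD4 cells with none of the 8 RNAs at 1000 UMIs were 46.6% and 46.1% in sh-NC and 20.9% and 25.0% in sh-B7-H3 (1), and CD8 cells 41.5% and 40.7% against 19.1% and 18.7%. At least 4 of the 8 were detected in 6.22% and 5.98% of sh-NC CD4 cells and in 22.1% and 23.3% of sh-B7-H3 (1) CD4 cells. Among Ccl5-high CD4 cells these shares were 46.8%, 35.7%, 39.7% and 39.0%, and there the groups overlapped. In CD8 cells at least 4 were detected in 6.40% and 7.48% against 32.2% and 26.2%, and among Ccl5-high CD8 cells in 41.7% and 39.4% against 50.8% and 44.2%, where both sh-B7-H3 (1) libraries lay above both sh-NC libraries.

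Over cells within a library, the 28 pairs of members had a mean correlation between 0.07 and 0.52 in CD4 cells and between 0.03 and 0.52 in CD8 cells. S100a4 and S100a6 had the highest value in both, followed in CD4 cells by S100a4 with S100a11 at 0.39 and in CD8 cells by S100a6 with S100a11 at 0.34. The medians were 0.18 and 0.14. Among 2025 other genes of at least 50 CPM in CD4 cells, those most correlated over cells with the members' sum were AW112010 (0.61), Ccl5 (0.57), the cytotoxic granule protein gene Nkg7 (0.57), the chemokine receptor gene Cxcr6 (0.43), Id2, Cd3g, Ctla2a, Tmsb4x, Srgn and Il2rb (0.34). In CD8 cells they were Ccl5 (0.72), Nkg7 (0.61), AW112010 (0.58), Tmsb4x (0.44), Cxcr6, Cd3g, Ctla2a, Id2, and the class I genes H2-K1 and H2-D1 (0.35). The members were chosen partly by their difference between Ccl5-high and Ccl5-low cells. Ccl5 and genes that go with it can therefore rank high through that choice alone. Cells of a library also share its capture and free RNA. These values are thus descriptions, over 616 to 1511 CD4 cells and 1123 to 2780 CD8 cells per library.

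The panel of 197 named antibodies held 1 against a protein of the set, Mac-2 or galectin-3, a readout that had not entered the choice of members. The tag's log2 fold change, sh-B7-H3 (1) over sh-NC, was 0.04 ± 0.04 in CD4 cells (adjusted p = 0.449, edgeR) and 0.02 ± 0.02 in CD8 cells (adjusted p = 0.427, edgeR), while 6.09% and 7.11% of tags were called. Whether the tag follows galectin-3 protein in these cells was not tested, so these values do not decide whether the protein differed. Per cell the tag averaged 9.91 to 16.6 counts over all cell groups and libraries, 6.78 to 9.08 times the mean of the 9 isotype controls. CD4 cells with no Lgals3 UMI had 7.55 to 8.01 times the isotype mean, and those with at least 3 UMIs, 22 to 40 cells a library, 7.54 to 8.69 times.

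Cells with no CD3 RNA and at least 10 UMIs of the 6 myeloid genes gave a comparison for the tag. There were 22, 23, 88 and 63 of them, and their Lgals3 RNA was 3073, 1529, 1093 and 1257 CPM. Their tag was 8.41, 8.71, 8.08 and 7.85 times the isotype mean. In each library this was above the ratio of its CD4 cells (8.03, 7.93, 7.65 and 7.57) and of its CD8 cells (8.05, 8.10, 7.79 and 7.45). Smaller T cell groups were higher still in sh-NC replicate 1, among them Foxp3 cells (8.43) and Ccl5-high CD4 cells (8.78). So were CD4 cells with at least 3 Lgals3 UMIs in sh-B7-H3 (1) replicate 2 (8.56). In sh-NC replicate 2 and sh-B7-H3 (1) replicate 1 no T cell group was higher. Per cell the tag averaged 13.05, 11.74, 15.58 and 11.02 counts in the cells with myeloid RNA. It averaged 12.82, 11.15, 15.63 and 11.27 in CD4 cells and 13.12, 11.49, 15.79 and 11.56 in CD8 cells. As a share of all tag counts it was 0.450% to 0.651% in the cells with myeloid RNA. It was 0.276%, 0.259%, 0.331% and 0.339% in CD4 cells and 0.239%, 0.235%, 0.322% and 0.331% in CD8 cells. By this share the tag was higher in sh-B7-H3 (1), whereas by the ratio to the isotype mean it was lower. The fitted fold changes of the tag thus depend on how tag counts were normalized. The cells with myeloid RNA had S100a4 at 45.6, 476, 60.4 and 102 CPM.

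**Figure D5:**
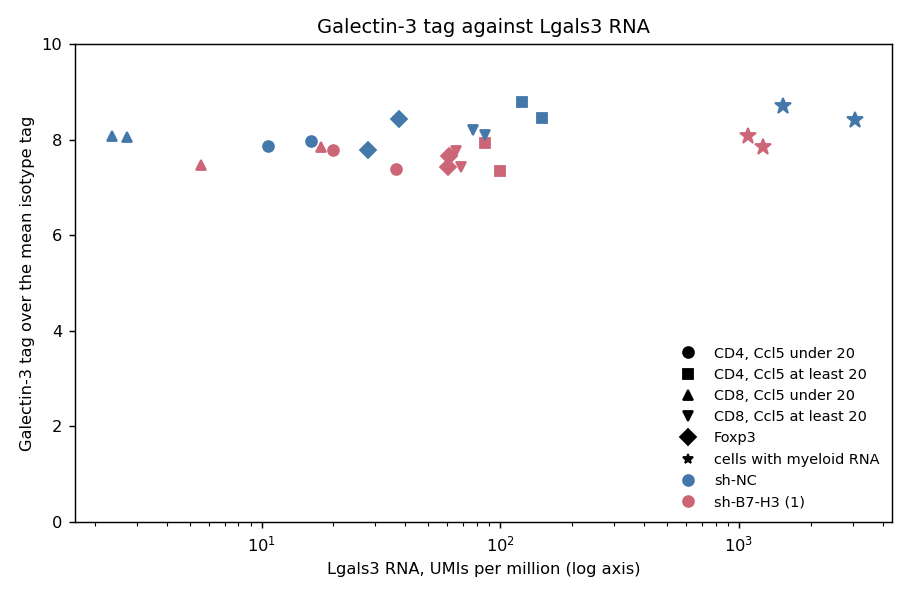
Galectin-3 tag, as a ratio to the mean isotype control tag, against Lgals3 RNA in CPM (log axis), for 5 T cell groups and for cells with myeloid RNA in each library, coloured by tumor group. The tag ratio stays between 7.35 and 8.78 while Lgals3 RNA spans from 2.37 to 3073 CPM.

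Myeloid RNA moved with the tumor groups. A UMI of any of the 6 myeloid genes was in 6.87% and 8.13% of sh-NC CD4 cells and in 28.5% and 28.3% of sh-B7-H3 (1) CD4 cells, and in 8.69% and 8.51% against 28.4% and 28.9% of CD8 cells. Thinned to 1000 UMIs, the shares were 2.05% and 1.67% against 6.82% and 6.1% in CD4 cells. With these cells left out, the log2 fold changes of S100a4, S100a6 and Lgals3 were 2.13, 2.16 and 1.17 in CD4 cells and 2.76, 2.33 and 1.69 in CD8 cells, and every member had the same call there as with all cells.

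Relatives of the 8 genes were compared in the same fits, where 7.81% of all genes tested in CD4 cells and 7.21% in CD8 cells were called as higher. Of 11 other S100 genes, 1 had enough counts to be tested. It was S100a1, a calcium sensor best known from muscle, and it rose in CD4 cells by 2.17 ± 0.39 (adjusted p = 0.000317, edgeR) and in CD8 cells by 1.04 ± 0.36 (adjusted p = 0.0217, edgeR), a call that 6 of 14 alternatives lost in CD8 cells, among them leaving out sh-NC replicate 1 (0.75), sh-B7-H3 (1) replicate 1 (1.08) or sh-B7-H3 (1) replicate 2 (1.00). Of 4 other galectins tested, 1 rose in CD4 cells. That was Lgals4, by 1.44 ± 0.32 (adjusted p = 0.00179, edgeR), though its value was 0.99, under the fold limit, without sh-NC replicate 2. In CD8 cells Lgals4 had 0.62 ± 0.25, also under the limit. Of the other annexins, 1 of 6 tested rose in CD4 cells and 2 of 7 in CD8 cells. Anxa4 rose by 1.93 ± 0.29 in CD4 cells and by 1.31 ± 0.27 in CD8 cells, and Anxa3 by 2.07 ± 0.47 in CD8 cells (adjusted p = 5.57e-05, 0.000345 and 0.000957, edgeR). The CD8 call of Anxa4 was lost with a stricter doublet limit, just under the fold limit at 0.99, and it had too few counts to be tested in thinned cells. The list medians were 0.21 and 0.49 for galectins and annexins in CD4 cells and 0.09 and 0.39 in CD8 cells. These are values of whole lineages. Split by Ccl5, 2 of 6 other annexins tested rose in Ccl5-low CD4 cells, against 1.8% of all genes as higher. No gene of these lists was otherwise called in Ccl5-low or Ccl5-high cells of either lineage. In those cells 0.955% to 2.08% of all genes were called in either direction. Of the other S100 genes, 1 could be tested there, in Ccl5-high CD4 cells.

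Of 14 genes for binding partners, 2 of the 11 tested rose in CD4 cells and 1 of 12 in CD8 cells, with medians of 0.11 and 0.01, against the same 7.81% and 7.21% of all genes. Ahnak, a giant scaffold protein that binds the S100a10 and annexin A2 tetramer, rose by 1.21 ± 0.10 (adjusted p = 8.38e-08, edgeR) and 1.14 ± 0.06 (adjusted p = 1.54e-13, edgeR). Cd7, a T cell glycoprotein bound by galectin-1, rose by 1.28 ± 0.11 in CD4 cells (adjusted p = 1.53e-07, edgeR) and had 0.92 ± 0.05 in CD8 cells, under the fold limit. The CD8 call of Ahnak was lost with a stricter doublet limit, at 0.90, and with up to 10% mitochondrial UMIs, just under the fold limit. No binding partner was called within the Ccl5-low or the Ccl5-high cells of either lineage. In those cells 0.955% to 2.08% of all genes were called in either direction. For orientation, 7 of 11 genes of activated T cells (such as Cxcr6, Nkg7 and Ifng) rose in CD4 cells and 10 of 11 in CD8 cells. The paper had already reported several of them as higher in these data, so nothing is read from these counts. Among Ccl5-low cells 6 of 11 rose in CD4 and 5 of 11 in CD8 cells, against 1.8% and 1.46% of all genes as higher. Among Ccl5-high cells 0 of 11 rose in either lineage, against 0.441% and 0.927% of all genes. At such shares 0 of 11 does not show that these genes were unchanged. In Ccl5-high CD4 cells 2 were lower, where 0.955% of all genes were called in either direction. Nothing is read from these counts either.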

How the data were processed

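The deposited files hold UMI counts per gene and antibody tag for all barcodes and for barcodes called as cells. The authors made these counts with Cell Ranger on mm10 (the file headers and the methods name different versions) from 10x 3′ libraries, without normalization across libraries. The processing notes also name Seurat 4.0.0. Counts were taken as deposited. Cells had 200 to 3000 genes and at most 5% mitochondrial UMIs. Doublets, 27.0% to 33.1% of cells, were removed where over a per-library (Otsu) share of the 50 nearest neighbours were simulated, with 30 components of 2000 variable genes and 2 simulated doublets per cell. CD4 cells had at least 1 Cd4 UMI, CD8 cells at least 2 of Cd8a plus Cd8b1 and no Cd4, both without Foxp3, and CD4 cells and Foxp3 cells (at least 1 Foxp3 UMI) had no Cd8a or Cd8b1.

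Levels (CPM) are UMIs per 1000000 of the summed class. Sums per library were tested with edgeR 4.0.16 (R 4.3.3, TMM, filterByExpr, quasi-likelihood), with Benjamini-Hochberg adjustment over all genes tested. A run of this procedure on simulated counts took the libraries as independent, so it does not cover repeat lanes of 1 pool. DESeq2 1.42.0 was an alternative. Others changed filters, doublet and Ccl5 limits, lineage calls, depth, normalization, replicates and blocks. Named genes were the members, called genes of the fixed family lists and the 10 genes per lineage most alike over cells. Members and lists were chosen with earlier results of these data known. Replicates of a group differed by more than independent UMIs would, at 1.55 to 2.00 chi-square units per degree of freedom. UMIs of 1 cell are not independent, so the draw of cells can be part of that spread. Shares of cells also varied between replicates, as for Ccl5-high CD8 cells in sh-NC (14.7% and 18.2%). The 2 planned splits of CD4 cells by a tag, 1 planned background population and 1 planned gene list are not reported here.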

Additional observations from a re-analysis of the deposited data

How the results depend on the processing

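With cells thinned to 1000 UMIs the counts for sh-B7-H3 (1) against sh-NC were 502 in CD4, 588 in CD8 and 30 in Foxp3 cells, 39 and 15 in Ccl5-low and Ccl5-high CD4 cells and 68 and 36 in the CD8 cells, with 858 and 1006 for the Ccl5 contrast in CD4 and CD8 cells and 35 for the lineage difference. A stricter doublet limit gave 700 in CD8, 20 in Foxp3, 42 in Ccl5-high CD4 and 101 and 118 in Ccl5-low and Ccl5-high CD8 cells. Stricter lineage calls gave 30 in Foxp3 and 44 in Ccl5-high CD4 cells, and 180 for the lineage difference. Without cells holding a myeloid UMI there were 50 in Foxp3, 133 in Ccl5-low and 50 in Ccl5-high CD4 cells. DESeq2 gave 16 in Foxp3, 106 and 6 in Ccl5-low and Ccl5-high CD4, 77 and 56 in the CD8 cells, and 18 for the lineage difference. Without a low-count filter there were 22 in Foxp3 cells. A Ccl5 limit of 10 gave 128 in Ccl5-low CD4 cells, a limit of 40 gave 420 and 284 in Ccl5-low CD4 and CD8 cells, and a limit of 5, chosen after seeing the data, gave 83 and 91. With no upper gene limit there were 47 in Ccl5-high CD4 cells. Leaving out 1 library in turn gave 115 to 208 and 49 to 98 in Ccl5-low and Ccl5-high CD4 cells and 90 to 114 in Ccl5-low CD8 cells. The difference in the Ccl5-high share of CD4 cells was 40.5 points with doublets kept, 33.1 with a stricter doublet limit, 32.2 with up to 10% mitochondrial UMIs, 49.2 with stricter lineage calls, 40.2 at a limit of 10 and 32.9 at 40. In CD8 cells it was 45.0, 36.2, 34.4 and 44.2 in the same order, and 38.9 at a limit of 40. In Foxp3 cells it was 6.30, 3.93, 3.25 and 2.66, with 3.92 without an upper gene limit, 6.27 without cells holding a myeloid UMI and 8.85 at a limit of 10. At the limit of 5 the Foxp3 shares were 14.4% and 16.9% in sh-NC against 29.9% and 31.4% in sh-B7-H3 (1). The Galectin-3 tag in CD4 cells turned to -0.0026 with stricter lineage calls. The cause of these changes was not tested. The deviations of same-numbered replicates had a correlation over genes of -0.02 in CD4 and -0.01 in CD8 cells. Noise of single genes can hide a shared step, so these values do not decide whether same-numbered libraries were handled together. The replicate block gave 40 calls in Ccl5-high CD4 cells against 78 without it, and 1122 against 1109 in CD4 cells. Counts in Ccl5-low cells were low for Lgals3, with 32 to 175 UMIs per library, and for Anxa2. They were also low for S100a4 in CD8 cells. With 0 to 4 Ccl5 UMIs, CD8 cells of sh-NC replicate 2 held 52 S100a4 and 69 Anxa2 UMIs.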
